A study of Mus musculus with 24 samples.

Results

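The genes described here encode the proteins of the cytosolic ribosome, measured in mammary tumors that the carcinogen DMBA induced in female BALB/c mice on diets low or high in fat. Members were taken by gene name, as every gene whose probe was named Rps or Rpl with a number and at most a suffix a, x, l or l1, together with Rplp0, Rplp1, Rplp2 and Rpsa. That gave 83 of the 30119 gene names on the array, namely 31 proteins of the small 40S subunit, 43 of the large 60S subunit, 3 of the P stalk and 6 paralogs that are encoded by genes of their own. Fau, Rack1 and Rpl36al, which also encode ribosomal proteins, carry other names and were counted with a list of translation genes instead. All 83 members passed the filter on low signal, as did 186 of their 188 probes.

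The 24 arrays each held RNA of a tumor. All groups shared the strain, the sex and the carcinogen. They received DMBA by oral gavage, in 4 weekly doses of 50 mg per kg that began at 5 weeks of age. Diets began at 3 weeks of age. Mice on the low-fat diet (LFD) or on the diet high in saturated animal fat (HFD) stayed on it, whereas LFD-HFD and HFD-LFD mice changed from the first-named to the second-named diet at 9 weeks of age. Tumors were taken at about 1 cm, up to 45 weeks of age, and were called early when they appeared before 23 weeks after DMBA and late otherwise. There were 5 LFD late, 3 HFD early, 6 HFD late, 4 LFD-HFD late, 3 HFD-LFD early and 3 HFD-LFD late tumors, so the early tumors on these arrays came only from mice that ate the HFD around puberty. The carcinogen gives a mixture of tumor types within each diet, and nothing in the labels says which tumors shared a mouse, so p-values measure the spread between these samples.

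Each value is the log2 ratio of tumor RNA (Cy5) to a reference RNA pooled from 11 mouse cell lines (Cy3), so 0 means the level of the reference and each unit is a 2-fold step. The labels put the tumor in Cy5, whereas the study's methods put the reference in Cy5, and the signs given here follow the labels. Across 13124 probes the median SD between arrays was 0.613 in Cy5 and 0.269 in Cy3, and 5 probes of Y chromosome genes lay between −4.72 and −1.06, brighter in Cy3 on 24 of 24 arrays. Cy3, the common reference by the labels, was thus the channel that varied less and was brighter for Y chromosome genes, with tumors from females. From 65.3% to 89.1% of the probes per array had a tumor signal that the scanner software called well above background. The luminal marker list lay above the reference in most tumors, but its mean was −0.05 in an early tumor and −1.29 in HFD late tumor 4, whose squamous list mean was 2.97. Arrays were scanned in 3 sessions, which held 3 early and 8 late tumors, 3 early and 3 late tumors, and 7 late tumors, and the HFD early tumors shared a slide with no other group.

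Ribosomal proteins are made in the cytoplasm, imported into the nucleolus and placed on ribosomal RNA in a fixed order by assembly factors, and a growing cell spends much of its transcription on them. The 40S subunit reads the mRNA, the 60S subunit joins amino acids, and the P stalk on the 60S subunit recruits the factors that drive elongation. Their mRNAs belong to the TOP class, which starts with a C followed by a run of pyrimidines. The kinase mTORC1 raises the translation of such mRNAs through the 4E-BPs and Larp1. Since the number of ribosomes follows growth and division, these genes are widely studied in tumors.

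The starts of members whose levels are described next show how far this class is visible in the annotation. Each line gives 15 bases before and 15 bases after an annotated RefSeq start on the gene's strand (GRCm38.p6), and capitals mark a C that lies within 5 bases of the start and is followed by at least 4 C or T, up to the end of the run.
Rps6, minus strand, chr4:86857353-86857382: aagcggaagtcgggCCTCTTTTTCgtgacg
Rps27, minus strand, chr3:90213634-90213663: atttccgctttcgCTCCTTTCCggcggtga
Rps9, plus strand, chr7:3704026-3704055: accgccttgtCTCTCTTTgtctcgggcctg
Rpl15, minus strand, chr14:18270972-18271001: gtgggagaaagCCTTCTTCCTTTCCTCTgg
Rps16, plus strand, chr7:28350674-28350703: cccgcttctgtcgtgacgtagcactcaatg
Rpsa, plus strand, chr9:120127751-120127780: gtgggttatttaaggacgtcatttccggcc
The run was present in Rps6, Rps27, Rps9 and Rpl15, and no such run began within 5 bases of the start in Rps16 and Rpsa. Of the 63 members with an entry in the promoter table, 29 (46.0%) had such a run, against 21.2% of the 27025 genes in the table. In the 250 bases before to 50 bases after the start, the letters CCGGAAG, on either strand, occurred in 26 members (41.3%) against 9.93% of all genes, and CACGTG, the E-box that Myc binds, in 6 members (9.52%) against 8.09%. The run was found in 4 of the 8 listed genes that differed between early and late tumors and in 25 of the other 55 (45.5%). These matches describe the letters and not a site in use.

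Early tumors were compared with late tumors to see which ribosomal protein genes went with the time of onset. There were 10 members that passed the test, all of them higher in the 6 early tumors than in the 18 late tumors. Described here are 9 of these, Rps16, Rps6, Rpsa, Rps27, Rps19 and Rps9 of the 40S subunit and Rpl21, Rpl15 and Rpl5 of the 60S subunit. Their differences ran from 0.32 (Rpl5) to 0.52 (Rpl21) on the log2 scale, or 1.25-fold to 1.44-fold. In this limma fit over 20961 genes, with Benjamini-Hochberg adjustment, 22.5% of all genes were called at an adjusted p under 0.05, 8.13% higher and 14.4% lower in early tumors, against 12.05% of the members. The share of members called was thus below that of all genes, and above it for the higher direction alone. Before adjustment 31 members passed a p of 0.05, against 37.7% of all genes. The difference was above 0 for 62 of 83 members, with a median of 0.14, whereas 42.3% of all genes were above 0, with a median of −0.07. No member separated the early from the late tumors completely, against 0.949% of all genes.

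**Figure D1:**
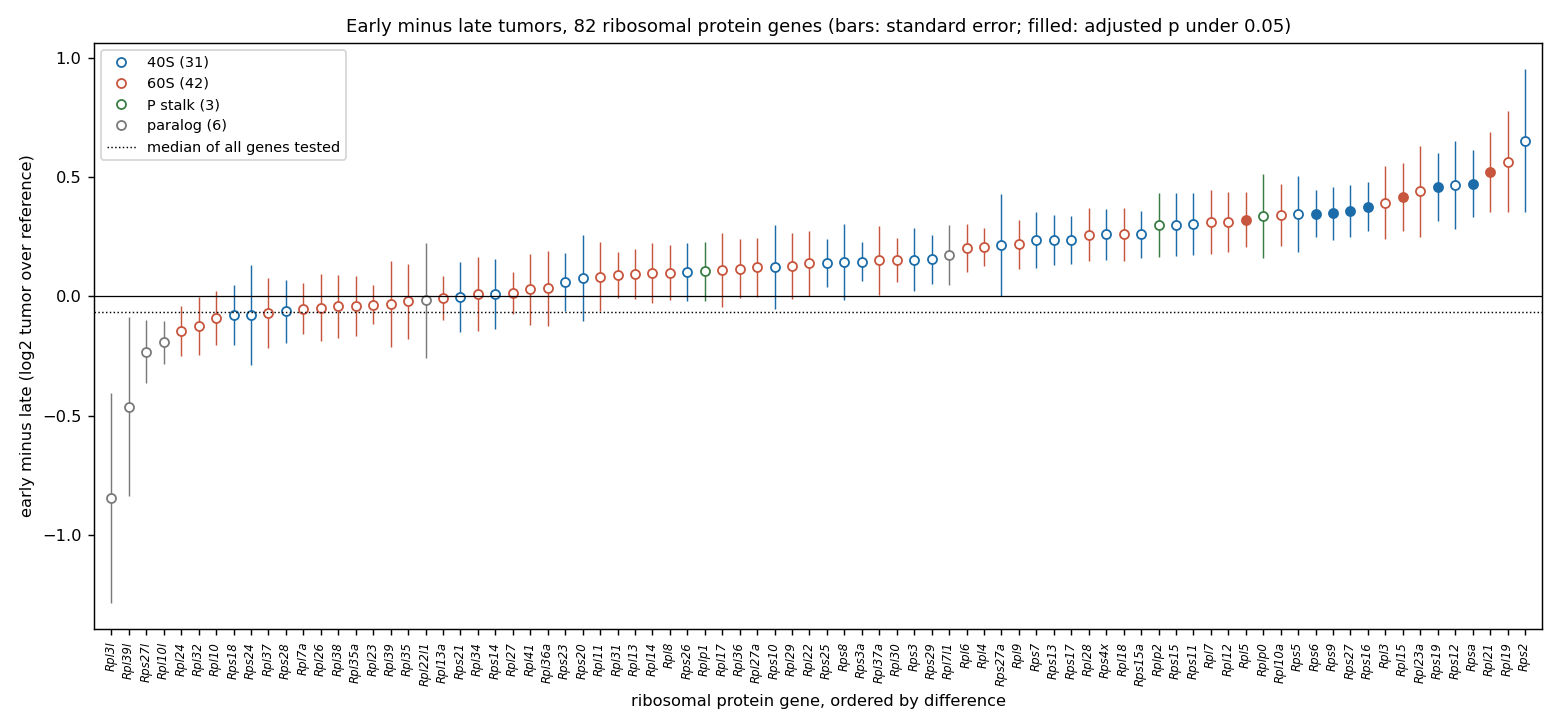
Early minus late difference of 82 members in log2 tumor over reference, with its standard error, ordered by difference and coloured by class (40S, 60S, P stalk and paralogs), filled points marking the members called at an adjusted p under 0.05. The 9 filled points lie between 0.32 and 0.52, and Rpl3l lies lowest at −0.85.

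Markers of other cells and of division moved between the same groups. Of 11 proliferation genes, 7 were higher in early tumors, the list mean running from 0.02 to 0.85 in early and from −1.47 to 0.95 in late tumors. Of 10 luminal genes, 5 were lower, the list mean running from −0.05 to 2.39 in early and from −1.29 to 3.44 in late tumors. Of 8 T cell genes, 4 were lower, the list mean running from −1.37 to −0.21 in early and from −0.75 to 2.19 in late tumors. Of 12 squamous genes 10 were above 0, with a median of 1.25, though 1 was called higher and 1 lower, and the list mean ran from −2.66 to 0.06 in early and from −3.73 to 2.97 in late tumors. Bulk RNA cannot tell a change in the share of cells of a type from a change in RNA per cell, and the part of these lists in the members' values was not tested.

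Among the 40S proteins, 27 of 31 were above 0, against 42.3% of all genes, with a median of 0.23. Of the 31, 6 rose, against 8.13% of all genes called higher. Rps16, whose tail reaches into the decoding region of the 40S subunit, ran from 0.66 to 0.98 in early tumors with a median of 0.88, and from 0.22 to 1.04 with a median of 0.41 in late tumors. A single late tumor stood above every early tumor, and the difference was 0.38 (SE 0.10, adjusted p = 0.013). Rps6, the substrate of the S6 kinases, ran from 0.59 to 0.91 (median 0.80) in early tumors and from 0.13 to 0.85 (median 0.41) in the 17 late tumors with a value. None of the late tumors exceeded the highest early tumor for Rps6, and the difference was 0.35 (SE 0.10, adjusted p = 0.016). Rpsa, which is also known as the laminin receptor precursor, ran from 0.32 to 0.60 (median 0.50) in early and from −0.44 to 0.83 (median −0.07) in late tumors. The early values were tightly placed while the late values spanned more than a log2 unit, and the difference was 0.47 (SE 0.14, adjusted p = 0.020).

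Rps27 ran from 0.49 to 0.78 (median 0.63) in early and from −0.15 to 0.94 (median 0.23) in late tumors, a difference of 0.36 (SE 0.11, adjusted p = 0.022). The probe used for Rps27 was placed by the array's annotation on chromosome 9 and not beside the gene on chromosome 3, and likewise the probe used for Rps29 was placed on chromosome 2. The 4 usable probes of Rps27 all had differences above 0, from 0.31 to 0.42. Rps19, the gene most often mutated in Diamond-Blackfan anemia, ran from −0.10 to 0.54 (median 0.04) in early and from −1.0 to 0.24 (median −0.44) in late tumors. Apart from HFD early tumor 3 at 0.54, its early tumors were near the reference, from −0.10 to 0.09. Most late tumors were below the reference, and the difference was 0.46 (SE 0.14, adjusted p = 0.026). Rps9, which lines the channel where mRNA enters, ran from 0.76 to 1.13 (median 0.95) in early and from 0.15 to 1.16 (median 0.54) in the 14 late tumors with a value, a difference of 0.35 (SE 0.11, adjusted p = 0.032).

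The other 25 proteins of the 40S subunit did not pass the test. Rps2 had the largest difference among them, 0.65 (adjusted p = 0.116), and ran from −0.01 to 0.68 in early and from −1.88 to 0.60 in the 14 late tumors with a value, so that single late tumors set its spread. Rps12 differed by 0.47 (adjusted p = 0.072), Rps15a by 0.26 (adjusted p = 0.057) and Rps4x, which is encoded on the X chromosome and has a probe placed on chromosome 3, by 0.26 (adjusted p = 0.084). Rps27a, which is made as a fusion with ubiquitin, differed by 0.21 (adjusted p = 0.485) and overlapped widely, from 0.28 to 1.09 in early and from −0.33 to 1.40 in late tumors. Rps18, Rps24, Rps28 and Rps21 were the 4 members of the subunit below 0, and Rps18 was the lowest at −0.08 (adjusted p = 0.671).

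**Figure D2:**
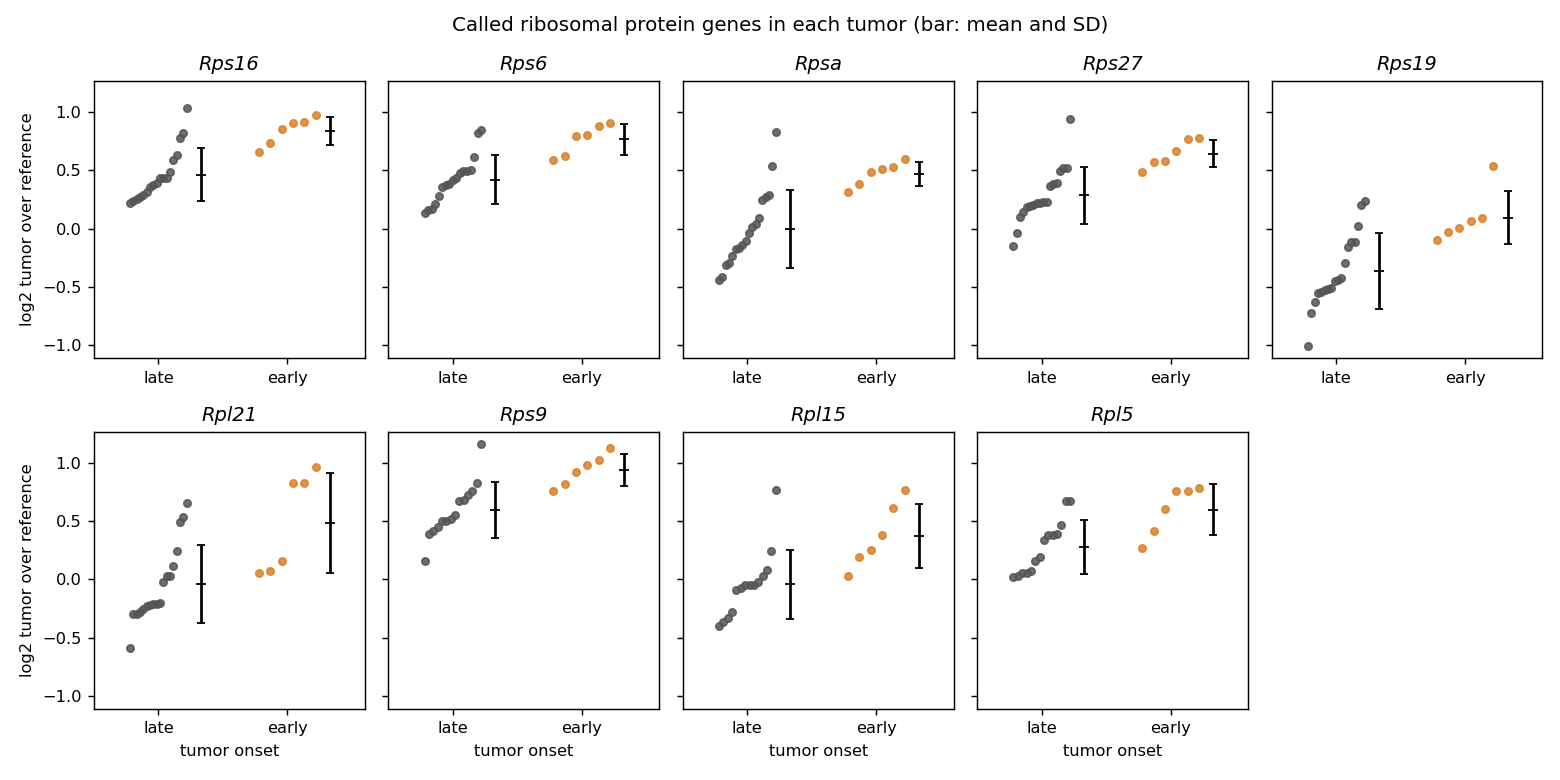
Log2 tumor over reference of 9 members that were higher in early tumors, 1 point for each of the 18 late and 6 early tumors (fewer where a value is missing), with the mean and SD of each group. The groups overlap for every gene drawn, and Rps19 reaches the lowest late value, −1.0.

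The 60S proteins were above 0 for 31 of 43, against 42.3% of all genes, with a median of 0.11. Of these proteins 4 rose, a share near the 8.13% of all genes that were called higher. Rpl21 ran from 0.05 to 0.96 (median 0.49) in early and from −0.58 to 0.66 (median −0.21) in late tumors, a difference of 0.52 (SE 0.17, adjusted p = 0.028). The 6 early tumors of Rpl21 fell into the values 0.82, 0.82 and 0.96 of the HFD mice and 0.05, 0.07 and 0.16 of the HFD-LFD mice, with no overlap. The former were all on slide 2 in the first scan session and the latter all on slide 4 in the second, so diet, slide and session cannot be told apart among early tumors for any gene. The late tumors of Rpl21 ran from −0.58 to 0.66 (median 0.07) in the first session and from −0.30 to −0.02 (median −0.23) in the second.

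Rpl15 ran from 0.03 to 0.77 (median 0.31) in early and from −0.40 to 0.77 (median −0.05) in 14 late tumors, a difference of 0.42 (SE 0.14, adjusted p = 0.042). Rpl5, which with Rpl11 and 5S rRNA forms the particle that binds Mdm2 and stabilizes p53, ran from 0.27 to 0.79 (median 0.68) in early and from 0.02 to 0.67 (median 0.26) in 14 late tumors. Its difference was 0.32 (SE 0.12, adjusted p = 0.049), at the edge of the threshold. Rpl11, its partner, ran from 0.26 to 1.04 in early and from 0.06 to 1.11 in late tumors and differed by 0.08 (adjusted p = 0.707). Just outside the threshold lay Rpl19 at 0.56 (adjusted p = 0.057) and Rpl4 at 0.21 (adjusted p = 0.058). Rpl10, which is placed last on the 60S subunit and helps to release Nmd3, differed by −0.09 (adjusted p = 0.583), and Rpl24 was the lowest protein of the subunit at −0.15 (adjusted p = 0.317).

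None of the 3 stalk proteins passed the test, though each was above 0. Rplp0, the base of the stalk, ran from 0.17 to 0.90 (median 0.64) in early and from −0.67 to 0.99 (median 0.24) in late tumors, a difference of 0.34 (adjusted p = 0.163). Rplp2 differed by 0.30 (adjusted p = 0.105) and Rplp1 by 0.10 (adjusted p = 0.558), the pair that binds to Rplp0 as a dimer.

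The 6 paralogs did not pass either, and 5 of them were below 0, with a median of −0.21. Rpl3l, which takes the place of Rpl3 in heart and skeletal muscle, ran from −4.80 to −2.90 (median −4.50) in early and from −4.60 to −1.03 (median −3.67) in late tumors. It stood far below the reference everywhere, with the largest spread of all members (SD 1.03), and the difference was −0.85 (adjusted p = 0.159). HFD-LFD late tumor 1 at −1.03 and LFD late tumor 2 at −1.47 were its highest values. The same tumors had the highest means over the skeletal muscle list, −1.03 and −1.34. Of the 8 muscle genes Mb, which encodes myoglobin, was lower in early tumors (−1.56, adjusted p = 0.024) and the others did not pass, the list mean running from −5.31 to −2.35 in early and from −4.81 to −1.03 in late tumors. The part of muscle RNA in the values of Rpl3l was not tested. Rpl3 itself differed in the other direction, by 0.39 (adjusted p = 0.070).

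Rpl39l, a paralog of Rpl39 known from the testis, ran from −2.72 to −1.60 in early and from −2.78 to 0.78 in late tumors, a difference of −0.46 (adjusted p = 0.383). HFD late tumor 4 was the only tumor in which it exceeded the reference. Its parent Rpl39 differed by −0.03 (adjusted p = 0.914). Rpl22l1, which can replace Rpl22 on the ribosome, ran from −0.90 to 0.06 in early and from −1.52 to 0.46 in late tumors and differed by −0.02 (adjusted p = 0.966), while Rpl22 differed by 0.14 (adjusted p = 0.481). The HFD early tumors had Rpl22l1 values of −0.89, −0.90 and −0.84 and the HFD-LFD early tumors −0.12, −0.11 and 0.06, a split by diet that is also one by slide and session. Late tumors of Rpl22l1 had medians of −0.74 in the first, −0.22 in the second and −0.09 in the third session. Rps27l, a target of p53, differed by −0.23 (adjusted p = 0.204), against the rise of Rps27. Rpl7l1 differed by 0.17 (adjusted p = 0.326) and Rpl7 by 0.31 (adjusted p = 0.094). Rpl10l, another paralog known from the testis, differed by −0.19 (adjusted p = 0.117), but its probe was well above background in only 2 of 6 early and 5 of 15 late tumors in which it was measured.

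**Figure D3:**
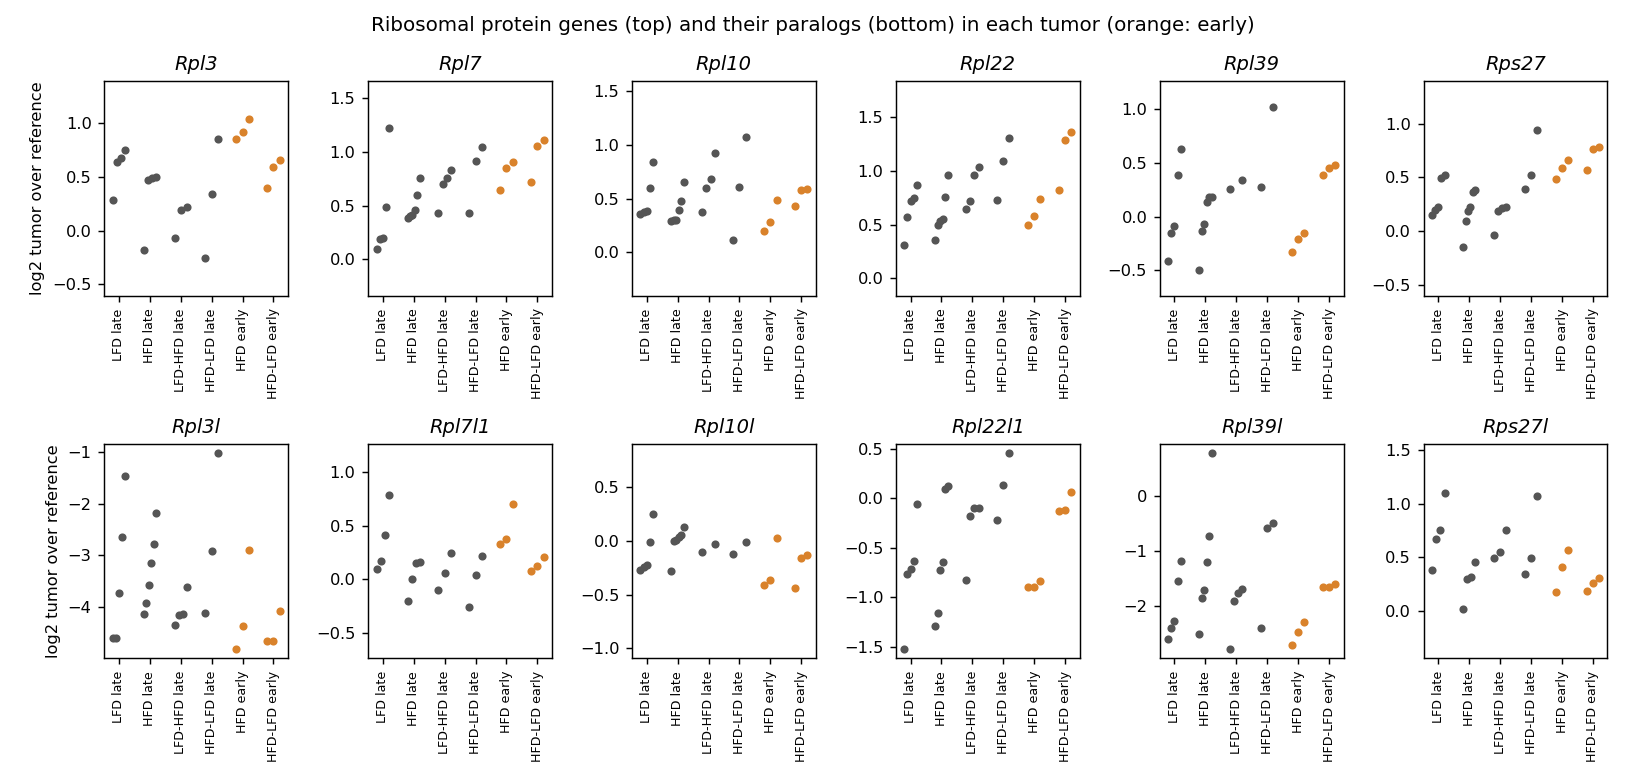
Log2 tumor over reference of 6 parent genes and their paralogs in each tumor, by diet and onset group. The scale differs between panels, since Rpl3l reaches −4.80 while no parent gene falls below −0.49.

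The whole set varied less between tumors than most genes. The median SD over the tumors was 0.27 for the members, from 0.15 to 1.03, and 0.38 for all genes, and 26.3% of all genes had an SD below the members' median. The median intensity was 16.6 on the log2 scale for members and 9.99 for all genes, and its part in the smaller SD was not tested. To show the set tumor by tumor, each member was centered on its own median over the tumors and the median over members was taken. That value had an SD of 0.15 between tumors. It was 0.00, 0.01 and 0.04 in HFD early tumors and 0.08, 0.20 and 0.25 in HFD-LFD early tumors, and it lay between −0.17 and 0.10 in LFD late and between −0.13 and 0.14 in HFD late tumors. The upper ends were those of LFD late tumor 4 and HFD late tumor 5, in which only 56 and 58 of the 83 members were measured. HFD late tumor 6, with 60 measured, was at −0.02. HFD late tumors 1, 2, 3 and 4, with all 83 measured, were at −0.12, −0.09, −0.12 and −0.13, below the HFD early tumors. The early and late tumors overlapped, with medians of 0.06 and −0.03.

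HFD-LFD late tumor 1 stood apart at 0.51. In that tumor 79 of 83 members were above their own median, and 43 members had their highest value of all tumors, against 12.1% of all genes. Among late tumors it was the highest for 59 members, among them 6 of the 10 that were higher in early tumors. Its mean over the list of elongation factors and other TOP mRNAs, 0.36, was also the highest of the tumors, as was its mean over the skeletal muscle list given above, and the part of either in its values was not tested. Without this tumor 19 members passed the test between early and late tumors, against 22.2% of all genes, with a median difference of 0.17.

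**Figure D4:**
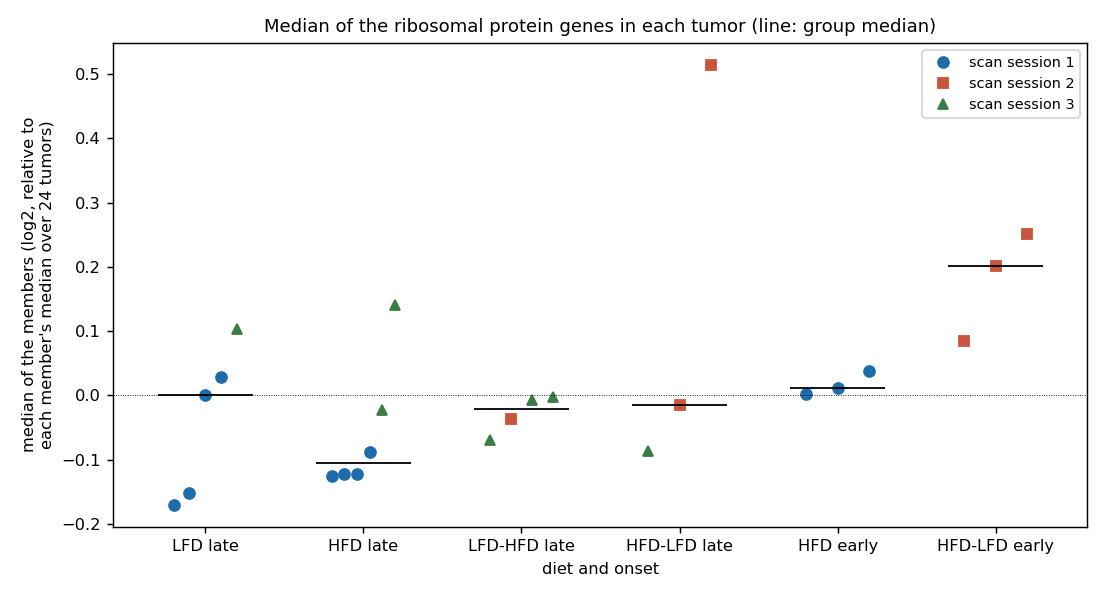
Median over the measured members of log2 tumor over reference, each member centered on its own median over the tumors, 1 point per tumor, by group, with the marker showing the scan session. All 83 members were measured except on slides 6 and 7, where 56 to 69 were. HFD-LFD late tumor 1 lies at 0.51 and the other tumors between −0.17 and 0.25.

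The calls were refitted with slides and scan sessions. With the slide as a random block, 1 member (Rps16, adjusted p = 0.049) passed, against 12.6% of all genes. The 9 differences were 0.34 to 0.52 in this fit, with adjusted p from 0.049 to 0.081, and the median over members was 0.13. With the slide as a fixed term the comparison rests on a single slide with 3 early tumors and 1 late tumor, and 0.267% of all genes passed. The 9 differences were then 0.29 to 0.56, with adjusted p from 0.311 to 0.763, and the median over members was 0.25, with 73 of 83 above 0. With the scan session as a fixed term 12 members passed (14.5%), 5 of the 10 among them, against 29.1% of all genes. Rpsa (0.37, adjusted p = 0.071), Rps27 (0.24, adjusted p = 0.093), Rps19 (0.39, adjusted p = 0.058) and Rpl15 (0.24, adjusted p = 0.095) were among those that lost the call. Within the first session, which held the HFD early tumors, the 9 genes were all above 0, from 0.20 to 0.77, and of these Rps16 (0.50, adjusted p = 0.045) and Rps6 (0.43, adjusted p = 0.045) passed. Within the second session, which held the HFD-LFD early tumors, the 9 were all above 0, from 0.12 to 0.30, with adjusted p from 0.205 to 0.720. Over all members, 58 of 83 were above 0 in the first session (median 0.14) and 55 of 83 in the second (median 0.07), against 41.6% and 44.9% of all genes.

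Other processing also ended calls. With the tumor channel alone 3 of the 10 kept theirs, and among the 9 Rps6 and Rpl5 did, while Rps16 (0.20, adjusted p = 0.142), Rpsa (0.28, adjusted p = 0.088), Rpl15 (0.15, adjusted p = 0.432), Rps27 (0.21, adjusted p = 0.082), Rps19 (0.38, adjusted p = 0.055), Rpl21 (0.39, adjusted p = 0.064) and Rps9 (0.39, adjusted p = 0.093) did not. In that setting 7 members and 12.6% of all genes were called. With the log ratio of the scanner software 4 kept theirs, Rps16, Rpsa and Rpl15 among them, and Rps6 was at 0.20 (adjusted p = 0.216). Without slides 6 and 7 the 3 that kept theirs were Rps16, Rps6 and Rpsa. The 9 differences were 0.28 to 0.46 there, with adjusted p of 0.068 to 0.127 for the 6 that lost the call, and 8 members and 19.5% of all genes were called. With arrays centred on the median 5 kept theirs, while the 9 differences were 0.91 to 1.21, with a median of 0.28 over all genes and adjusted p of 0.051 to 0.081 for the 5 of them that lost the call, and 14 members and 12.8% of all genes were called. Rpl21 lost its call with the mean over probes (0.25, adjusted p = 0.068) and with array weights (0.30, adjusted p = 0.058). Rpl5 lost its call with array weights (0.23, adjusted p = 0.062) and without background correction (0.33, adjusted p = 0.054). It also did so with the signal filter on every array (0.32, adjusted p = 0.052). Rps9 lost its call when rows of spots dimmed in Cy5 on slides 6 and 7, otherwise set missing, were kept (1.08, adjusted p = 0.255). Leaving out single tumors also moved the count of 10. It was 3 without HFD early tumor 2 (13.3% of all genes), 4 without HFD early tumor 3 (15.9%) and 6 without HFD-LFD early tumor 3 (17.5%), and it was 19 without HFD-LFD late tumor 1, as given above. Rps16, Rps6 and Rpsa passed whichever tumor was left out, Rpl15 passed in 11 and Rpl5 in 8 of the 24 refits. Rpl21 also lost the call when HFD early tumor 1, 2 or 3 was left out. Rps9 lost it in the same cases and without HFD-LFD early tumor 3, Rps27 without HFD early tumor 2 or HFD-LFD early tumor 3, and Rps19 without HFD early tumor 2 or 3.

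Several members carried probes along the transcript, and these did not always give the same difference. Among the 57 members with more than 1 usable probe, the probes had the same sign in 42, and they spanned more than 0.3 in 14. For the 3 genes in which, among pairs at least 200 bases apart, the 5′ probe exceeded the 3′ probe by most, the usable probe nearest the 5′ end and the probe used for the gene are shown, to give where on the transcript each value was read. They are written 5′ to 3′ with their mm9 positions, and a span longer than the probe crosses an intron.
Rpsa, base 91 of the transcript, plus strand, chr9:120037601-120037660: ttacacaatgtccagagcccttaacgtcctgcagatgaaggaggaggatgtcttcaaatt
Rpsa, base 876, plus strand, chr9:120040269-120040849: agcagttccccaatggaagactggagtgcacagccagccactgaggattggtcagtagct
Rpl7a, base 130, plus strand, chr2:26766632-26766986: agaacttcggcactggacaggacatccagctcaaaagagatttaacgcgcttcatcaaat
Rpl7a, base 762, plus strand, chr2:26768730-26768789: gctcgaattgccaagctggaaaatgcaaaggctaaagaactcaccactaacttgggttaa
Rps15, base 87, plus strand, chr10:79755554-79756394: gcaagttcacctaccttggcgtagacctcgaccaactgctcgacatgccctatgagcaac
Rps15, base 378, plus strand, chr10:79756716-79756775: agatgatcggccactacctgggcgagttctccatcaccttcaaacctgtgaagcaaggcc
The early minus late difference of Rpsa was 0.90 at base 91, 0.47 at base 876, which is the probe used above, 0.08 at base 990 and 0.18 at base 1340. For Rpl7a it was 0.63 at base 130 and −0.05 at base 762, the probe used, and 0.05 at base 791, the dimmer of the probes there. For Rps15 it was 0.84 at base 87 and 0.30 at base 378, the probe used. Rpl13a differed between its probes by as much in the other direction, at −0.01 at base 511 and 0.53 at base 758.

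At these 5′ probes many late tumors were low. At base 91 of Rpsa the early tumors ran from −0.19 to 0.53 and the late tumors from −2.54 to 0.31 (median −0.55), 14 of 18 below every early tumor. LFD late tumors 5 and 1 were the lowest at −2.54 and −2.21, followed by HFD late tumors 4 and 5 at −1.33 and −1.28 and LFD-HFD late tumor 1 at −1.15. At base 87 of Rps15 the early tumors ran from 0.35 to 1.34, and 10 of 15 late tumors lay below them. HFD late tumor 4 and LFD late tumors 5 and 1 stood apart there at −1.86, −1.60 and −0.95, against −0.36, 0.28 and 0.50 at base 378. At base 130 of Rpl7a the early tumors ran from 0.08 to 0.57 and the late tumors from −1.12 to 0.53 (median −0.40), 14 of 18 below every early tumor. HFD late tumor 4 and LFD late tumor 5 were the lowest at −1.12 and −0.80, next to LFD-HFD late tumor 1 at −0.78, LFD late tumor 4 at −0.61, HFD late tumor 6 at −0.60 and HFD-LFD late tumor 3 at −0.59, while LFD late tumor 1 was at −0.45. The lowest values of Rps2 were those of LFD late tumors 5 and 1 and HFD late tumor 4, at −1.88, −1.68 and −0.74, with HFD-LFD late tumor 3 next at −0.70. Without these 3 tumors 10 members passed, against 19.0% of all genes, 8 of them shared with the fit on all tumors.

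**Figure D5:**
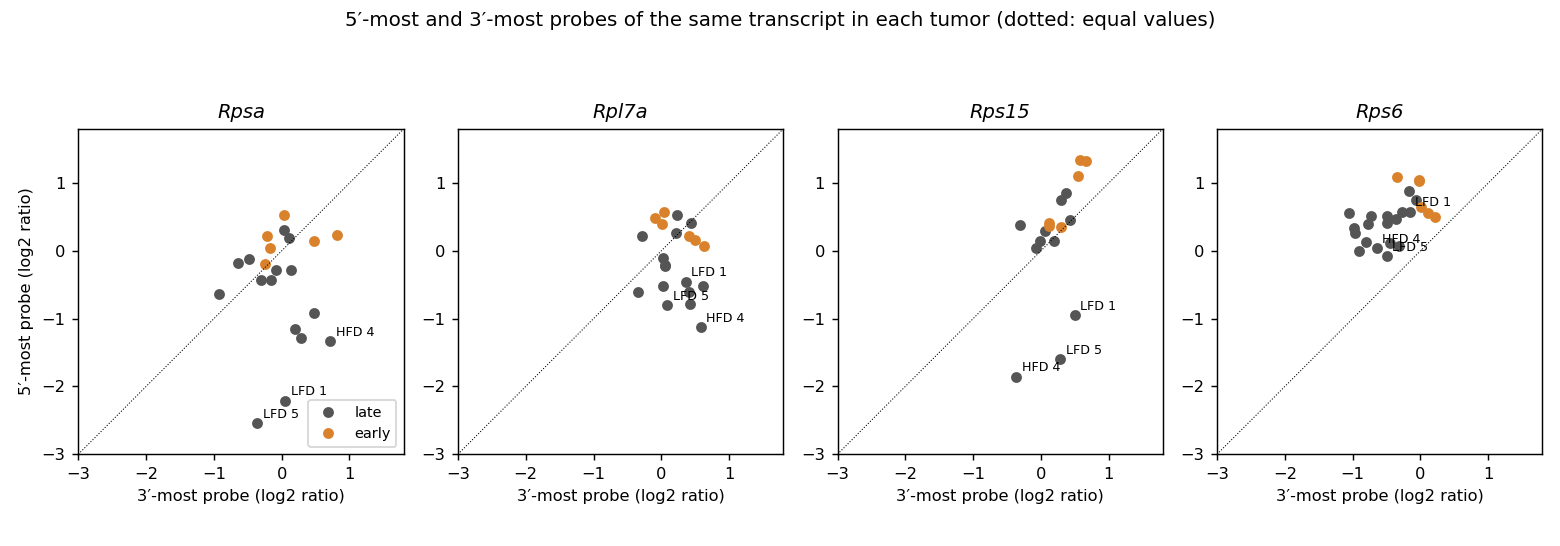
Log2 tumor over reference at the 5′-most against the 3′-most usable probe of Rpsa, Rpl7a, Rps15 and Rps6, with LFD late tumors 1 and 5 and HFD late tumor 4 marked. Each tumor measured at both probes is 1 point, and tumors with a missing value at either are not drawn. The marked tumors fall to −2.54 at the 5′ probe of Rpsa, where early tumors stay between −0.19 and 0.53.

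Over the 22 members with a pair of probes at least 200 bases apart, the difference was larger at the 5′ probe in 14, with medians of 0.25 at the 5′ and 0.16 at the 3′ probe. In 3176 other genes with such a pair it was larger at the 5′ probe in 58.2%, with medians of −0.01 and −0.04. The 5′ minus 3′ value, centered in the same way as the members, had a median over the member pairs of 0.10 in early tumors (−0.13 to 0.31) and −0.04 in late tumors (−0.36 to 0.32). It was 0.15 to 0.31 in HFD early and −0.13 to 0.05 in HFD-LFD early tumors, which differ in slide and session as well as in diet. The same value over the other genes was 0.06 to 0.19 in HFD early, −0.10 to 0.00 in HFD-LFD early and −0.14 to 0.21 in late tumors. Rps6 kept its difference at every probe, 0.45 at base 381, 0.35 at base 589 and 0.55 at base 1274. With the probe nearest the 3′ end in place of the brightest, 8 members passed, 5 of the 10 among them, against 22.7% of all genes. This changed the probe of 30 members, whose median was 0.21 with the brightest probe and 0.22 with the 3′ probe, and left the other members as they were. The calls of Rps16 (0.23, adjusted p = 0.113), Rps27 (0.31, adjusted p = 0.064), Rpl15 (0.47, adjusted p = 0.075), Rpsa (0.18, adjusted p = 0.549) and Rpl21 (−0.00, adjusted p = 0.995) were lost. The 3′ probes of Rpsa and Rpl21 had mean intensities of 8.60 and 8.55 on the log2 scale, and their differences had SEs of 0.20 and 0.16. The part of intensity in the lost calls was not tested. Whether the state of the RNA had a part in these differences was not tested.

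The comparison of onset was repeated within the diets that gave early tumors. Within HFD, 6 members rose in early tumors (7.23%), against 16.3% of all genes called, 6.69% higher and 9.60% lower. Before adjustment 18 members passed, against 32.9% of all genes. Those that rose included Rpl21 (0.90, SE 0.19, adjusted p = 0.0056), Rps15 (0.70, SE 0.15, adjusted p = 0.0083), Rpl23a (0.76, SE 0.17, adjusted p = 0.010), Rpl5 (0.57, SE 0.14, adjusted p = 0.016) and Rpl28 (0.46, SE 0.14, adjusted p = 0.026). Rpl21 and Rpl5 were also among the 10 above, in a comparison that shares these tumors. Rpl23a, at the exit of the peptide tunnel, was 0.95, 1.11 and 1.11 in HFD early tumors and ran from −0.06 to 0.82 in HFD late tumors. Its HFD early tumors were above all HFD late tumors, and above the HFD-LFD early tumors at 0.07, 0.21 and 0.33. The median over members was 0.10, against −0.10 for all genes. The HFD early tumors lay alone on their slide, so slide and group cannot be told apart here. The 5′ minus 3′ value over other genes was also higher in them, 0.06 to 0.19 against −0.02 to 0.05 in HFD late tumors, with no overlap, and over members it was 0.15 to 0.31 against −0.36 to 0.32, and its part in these calls was not tested. The count was 3 without HFD early tumor 1, 2 or 3 (8.37%, 6.14% and 7.34% of all genes), 10 without HFD late tumor 1 (18.2%), 11 without LFD late tumor 3 (18.8%) and 12 without HFD-LFD late tumor 1 (18.3%). It was 0 with arrays centred on the median (5.81% of all genes) and 3 with the slide as a random block (5.70%). Imputed values and the session term each gave 11 (19.3% and 16.4%), no background correction 12 (12.3%) and array weights 29 (43.6%).

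Within HFD-LFD, no member passed by limma, against 2.81% of all genes (1.40% higher and 1.41% lower), and 4 had an unadjusted p under 0.05, against 22.8% of all genes. With arrays centred on the median in place of loess 75 members were called here, against 32.8% of all genes, with medians of 1.99 over members and 0.85 over all genes, and without background correction the median over members was 0.23. The 5 genes named as rising within HFD had differences of 0.06 to 0.46 here. Rps12, at 1.16, 1.05 and 1.11 in the HFD-LFD early tumors, was higher there than in the HFD early tumors (−0.02, 0.28 and 0.31). It ran from 0.11 to 1.02 in the HFD-LFD late tumors, a difference of 0.67 (SE 0.24, adjusted p = 0.116). Rpl3l differed by −1.77 (adjusted p = 0.174) and Rpl23 by −0.27 (adjusted p = 0.207). Without HFD-LFD late tumor 1, which had the highest skeletal muscle mean, these were −0.94 (adjusted p = 0.586) and −0.16 (adjusted p = 0.599). In that refit Rps12 was called at 0.96 (adjusted p = 0.0499), against 0.844% of all genes. The HFD-LFD early tumors were all on slide 4 and the HFD-LFD late tumors on slides 5 and 7, so slide and group cannot be told apart here either. The change within HFD minus that within HFD-LFD passed for no member and 0% of all genes by limma, with 5 members at an unadjusted p under 0.05 against 9.38% of genes. Rps15 had the smallest p of this comparison, at 0.60 (adjusted p = 0.461), followed by Rpl13 at 0.47 (adjusted p = 0.503) and Rpl37a at 0.55 (adjusted p = 0.531). With 3 tumors in most of these groups the intervals are wide, and changes of this size could not be told from 0.

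Diet was compared in 2 ways. In 9 HFD tumors, 3 of them early, against 5 LFD tumors, all late, no member and 0% of all genes passed by limma, and 4 members had an unadjusted p under 0.05, against 4.14% of all genes. The median over members was 0.02. Rpl26 differed by −0.53 (SE 0.14, adjusted p = 0.968), Rpl17 by −0.42 (SE 0.11, adjusted p = 0.9997) and Rps27l by −0.41 (SE 0.16, adjusted p = 0.9997). Rpl26 ran from 0.45 to 0.86 in 4 LFD late tumors and from −0.26 to 0.13 in 4 HFD late tumors. It was 0.15, 0.16 and 0.31 in the HFD early tumors. None of the HFD values overlapped the LFD tumors, but the fit over all genes gave no call. These LFD late, HFD late and HFD early values came from slides 1, 3 and 2, so diet and slide cannot be told apart for Rpl26.

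Among the late tumors, which exist for all 4 diets, 2 members differed by limma's F test (2.41%), against 1.49% of all genes, and 14 had an unadjusted p under 0.05 against 19.5% of genes. Rps24, another gene mutated in Diamond-Blackfan anemia (F test adjusted p = 0.027), was 0.01 ± 0.24 (SD, n = 4) in LFD, 0.01 ± 0.15 (n = 4) in HFD, 0.57 ± 0.08 (n = 3) in LFD-HFD and 0.84 ± 0.31 (n = 3) in HFD-LFD late tumors. The diets that were switched did not overlap with those that were constant, but every constant-diet value of Rps24 came from the first scan session and every late switched-diet value from the other sessions, so diet and session cannot be told apart for this gene. Rpl37 (adjusted p = 0.048) was 0.27 ± 0.29 (SD, n = 5) in LFD, 0.31 ± 0.20 (n = 6) in HFD, 0.76 ± 0.13 (n = 4) in LFD-HFD and 0.87 ± 0.15 (n = 3) in HFD-LFD late tumors, with the same order and some overlap. Rpl35 lay just outside (adjusted p = 0.054). The HFD-LFD early tumors were at 0.69 ± 0.25 (SD, n = 3) for Rps24 and the HFD early tumors at −0.23 ± 0.07 (n = 3). Rps24 was 1 of 23 members whose constant and switched diets shared no session, since their values on slide 6 were missing. For the other 60 members a fit with the scan session as a fixed term was possible, and there no member passed by limma's F test, against 1 of 15601 genes, with 2 members at an unadjusted p under 0.05 against 14.6% of those genes, and Rpl37 at an adjusted p of 0.690. The count was 8 without LFD late tumor 4 (3.45% of all genes), 4 without HFD late tumor 4 (2.90%), 3 without HFD-LFD late tumor 2 (1.22%), 2 without HFD late tumor 5 or 6 (1.69% and 1.73%), and 0 or 1 without any other tumor.

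Set against LFD late tumors, HFD-LFD late tumors had 6 members higher (7.23%), against 2.22% of all genes called and 1.35% called higher. These were Rps24 (0.82, adjusted p = 0.022), Rpl35 (0.76, adjusted p = 0.024), Rpl36 (0.63, adjusted p = 0.026), Rps20 (0.76, adjusted p = 0.040), Rps14 (0.68, adjusted p = 0.045) and Rpl37 (0.60, adjusted p = 0.047), and the median over members was 0.19. Without HFD-LFD late tumor 1 none passed by limma, against 1.55% of all genes, and 19 members had an unadjusted p under 0.05, against 14.2% of all genes. The 6 then had differences of 0.52 to 0.69 and adjusted p of 0.064 to 0.166, and the median over members was −0.05. With the scan session as a fixed term, which could not be fitted for Rps24, Rps20 was at 0.73, Rpl35 at 0.62, Rps14 at 0.55, Rpl36 at 0.41 and Rpl37 at 0.30, with adjusted p from 0.363 to 0.731. In that limma fit no member of 60 and 0% of 15601 genes passed, 6 members had an unadjusted p under 0.05 against 9.26% of those genes, and the median over the 60 members was 0.04. HFD late tumors had no member called against LFD late tumors, as 0% of all genes, and LFD-HFD late tumors had none against 1.31% of all genes. Before adjustment 7 members passed in the former comparison, against 8.45% of all genes, and 17 in the latter, against 17.6%, and both share the LFD tumors.

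Genes that build or regulate ribosomes were counted in the early against late comparison as lists, to be read against the 8.13% of all genes called higher and 14.4% called lower. Of 47 ribosome assembly factors 6 were higher and none lower, with a median of 0.13. Utp20, part of the small subunit processome, rose by 0.58 (adjusted p = 0.0056) and Dkc1, the pseudouridine synthase of ribosomal RNA, by 0.60 (adjusted p = 0.0073). The means over this list overlapped, from 0.42 to 0.66 in early and from 0.09 to 0.66 in late tumors. Of 14 genes of RNA polymerase I and its factors 3 were higher and none lower, with a median of 0.12. Polr1b, its second largest subunit, rose by 0.81 (adjusted p = 0.010) and Taf1d by 0.61 (adjusted p = 0.0088).

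Of 21 elongation factors and other TOP mRNAs 4 were higher and 2 lower, with a median of 0.19. Eef1b2, an exchange factor for eEF1A, rose by 0.52 (adjusted p = 0.010) and Nap1l1 by 0.70 (adjusted p = 0.0097), while Rpl36al fell by 0.36 (adjusted p = 0.031). Of the ribosomal proteins that the naming rule left out, Fau differed by 0.06 (adjusted p = 0.789) and Rack1 by 0.27 (adjusted p = 0.241). Of 15 genes that control TOP mRNAs through mTORC1 a single gene passed, the translation repressor Eif4ebp1, which fell by 0.67 (adjusted p = 0.0090). Ddit4, which inhibits mTORC1, differed by 0.36 (adjusted p = 0.229). Of 5 genes of the Myc family Mycn was higher by 3.41 (adjusted p = 0.0040), and Myc differed by 0.55 (adjusted p = 0.091). Of 78 proteins of the mitochondrial ribosome 6 were lower and none higher, a share below that of all genes in each direction, with a median of −0.08. Mrpl14 fell by 0.41 and Mrps36 fell by 0.39.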

How the data were processed

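RNA of 24 mouse mammary tumors and a common reference were hybridised to 2-colour Agilent arrays with probes of 60 bases. The deposited files hold, per the file headers, spot intensity values of both channels that the authors extracted with Agilent Feature Extraction 11.0.1.1 (the submitters' processing notes name 8.5.1.1), with probe positions on mm9. They also hold the deposited log10 ratio of the scanner software, used as an alternative.

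Mean intensities were background corrected (normexp, offset 50) and loess normalised within arrays (span 0.3, 4 iterations) with limma 3.58.1 in R 4.3.3 and the package data.table, version 1.17.8. Control spots and outlier flags were left out. On 7 arrays of slides 6 and 7, rows of spots dimmed in Cy5 were set missing, which left 43 members with a missing value in at most 4 tumors. Spots of a probe were averaged, probes needed a background-subtracted signal above 10 in both channels on 80% of arrays, and the brightest probe stood for a gene. Of the probes, 27234 were named by accession, 3576 by symbol, 565 by an older symbol and 8054 as in the file.

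Group differences were fitted with lmFit and eBayes over 20961 genes, with Benjamini-Hochberg adjustment over all of them and a call at an adjusted p under 0.05. The scripts were tested on simulated data. Members and lists were chosen with earlier results of these data known. Named were the 10 members with the smallest p between early and late tumors, the 3 with the smallest p in each other comparison, the stalk, Rpsa, Rps6, Rps19, Rpl5, Rpl11, Rps27a, Rps4x, Rpl10, each paralog pair, and the 2 genes with the smallest p of each pathway list. A member and a gene of a list are counted but not reported here. Other genes were named after their values were seen, because they lay near the threshold, at an end of a range or at differing probes. Alternatives changed the background, normalisation, missing values, filter, probe choice, weights, slide and session terms, and each tumor in turn. With a slide or session term, genes whose measured tumors could not separate it from the comparison were left out of that fit. The 3′ probe, the fit without 3 late tumors and the refits of HFD-LFD late against LFD late tumors were chosen after seeing the data. Marker lists of squamous and milk protein genes, macrophages, T and B cells, basal cells, endothelium, fibroblasts and adipocytes were counted as well. The number of arrays limits the precision. 0 columns of other samples were set aside.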

Additional observations from a re-analysis of the deposited data

Results flagged for a closer look

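Among 132 groups of 4 to 10 tumors of the named members, 10 held a tumor far from the others by Dixon's criterion, where chance alone gives about 1 in 20. HFD late tumor 4 was the lowest of its group for Rpl3 (−0.18, the next at 0.48). HFD late tumor 1 was the lowest of its group for Rpl15 (−0.28), Rpl26 (−0.26) and Rpl10l (−0.28). HFD late tumor 5 was the highest for Rpl37 (0.71), and LFD late tumor 4 the highest for Rpl11 (1.06, the next at 0.16). The latter was the only LFD tumor of the third scan session. Late tumors of Rpl11 ran from 0.06 to 0.56 in the first session and from 0.62 to 1.11 in the second. In the third they ran from 0.53 to 1.06, with this tumor as the highest. The part of the session in this value was not tested. LFD-HFD late tumor 1 was the lowest for Rps27 (−0.039), LFD-HFD late tumor 3 the lowest for Rpl22l1 (−0.82) and LFD-HFD late tumor 2 the highest for Rps19 (−0.30, the others near −0.5). Among the early tumors HFD early tumor 3 was the highest for Rps19 (0.54, the next at 0.09).

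The change between early and late tumors had opposite signs in the diets for Rpl23, at 0.08 within HFD and −0.27 within HFD-LFD, a difference of 0.35 (limma, adjusted p = 0.531). It also had opposite signs for Rps27a, at −0.10 within HFD and 0.11 within HFD-LFD, a difference of −0.21 (adjusted p = 0.913).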

How the results depend on the processing

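No paired analysis was possible because replicate numbers were given in accession order and pair no tumors. Over the 6 comparisons, 135 counts and medians recomputed under settings other than leaving out a tumor stayed within 1.5 times the count or within the spread between tumors, and 35 did not.

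Between early and late tumors the count of 10 became 31 at an unadjusted p (37.7% of all genes), 5 with the scanner's log ratio (14.2% of all genes), 17 with the mean over probes (22.8%), 36 with array weights (33 higher, against 41.0% of all genes), 1 with the slide as a random block (12.6%), 0 with the slide as a fixed term (0.267%), 6 within session 1 (7.14%), 0 within session 2 (9.43%) and 19 with group means (30.7%). The unadjusted p gave 4 members for HFD against LFD (4.14% of all genes), 18 within HFD (32.9%), 4 within HFD-LFD (22.8%), 5 for the difference between these (9.38%) and 14 for diet among late tumors (19.5%). Centring arrays on the median without loess put the median of all genes at 0.28 and that of the members at 0.77 between early and late tumors, 0.59 within HFD (0 called against 5.81% of all genes, whose median was 0.22) and 1.99 within HFD-LFD (75 called), where all genes had a median of 0.85 and 32.8% were called. Without background correction 12 members passed within HFD, against 12.3% of all genes, and the median within HFD-LFD was 0.23. The count within HFD was 11 with imputed values (19.3% of all genes), 29 with array weights (43.6%), 3 with the random slide block (5.70%) and 11 with the session as a term (16.4%), and within HFD-LFD it was 1 with array weights (9.46%). The count for diet among late tumors was 0 with median centring (0.0048% of all genes), the tumor channel alone (1.27%), the dimmed rows kept (0.083%), the random slide block (0.11%), the session term (0.0064%, over 60 members, the others having no session in common between the diets) or without slides 6 and 7 (0.21%), 1 with the stricter filter (1.58%) or the mean over probes (0.854%), and 9 with array weights (10.3% of all genes). The cause of these moves was not tested.

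Leaving out 1 tumor at a time gave counts of 3 to 19 (13.3% to 27.0% of all genes) and medians of 0.11 to 0.17 between early and late tumors, 0 and −0.03 to 0.04 for HFD against LFD, 3 to 12 (6.14% to 18.8%) and 0.09 to 0.12 within HFD, 0 to 1 (0.143% to 5.38%) and −0.050 to 0.25 within HFD-LFD, 0 for the difference between these, and 0 to 8 (0.348% to 3.45%) for diet among late tumors.

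No member that was higher in early tumors changed sign except Rpl21 (−0.0019 with the 3′ probe). Among other named members, early minus late changed sign as follows. With array weights it was 0.023 for Rpl26, −0.043 for Rpl13, 0.24 for Rps24, 0.037 for Rpl37, 0.19 for Rpl35, 0.34 for Rpl22l1 and 0.15 for Rpl39. With the dimmed rows kept it was 0.10 for Rpl26, 0.67 for Rps27l, 0.80 for Rps24 and 0.033 for Rpl39. The mean over probes gave 0.040 for Rpl26, 0.060 for Rpl23, 0.12 for Rps24 and 0.064 for Rpl39. Median centring gave 0.75 for Rpl26, 0.50 for Rps27l, 0.52 for Rpl23, 0.71 for Rps24, 0.49 for Rpl37, 0.54 for Rpl35, 0.48 for Rpl10, 0.47 for Rpl22l1 and 0.58 for Rpl39. The 3′ probe gave −0.40 for Rpl17, 0.18 for Rpl23, −0.061 for Rpl13 and 0.31 for Rpl39. The scanner's log ratio gave −0.011 for Rpl37a and 0.012 for Rpl39l. The tumor channel alone gave 0.11 for Rpl26, 0.030 for Rps27l, 0.030 for Rpl37, 0.049 for Rpl35, −0.082 for Rpl11, 0.094 for Rpl10 and 0.21 for Rpl39l. The random slide block gave 0.043 for Rpl22l1, and the slide as a fixed term gave 0.23 for Rpl26, −0.096 for Rpl13, 0.21 for Rps24, 0.25 for Rpl35, 0.76 for Rpl22l1, 0.096 for Rpl39 and 0.28 for Rpl39l. The session term gave −0.053 for Rpl17 and 0.025 for Rpl22l1. Session 1 gave −0.074 for Rpl17, 0.090 for Rpl23 and 0.024 for Rpl37, and session 2 gave −0.023 for Rpl17, −0.17 for Rpl13, −0.094 for Rpl37a, −0.018 for Rpl11 and 0.14 for Rpl22l1. Without slides 6 and 7 the values were −0.0054 for Rpl17, 0.032 for Rps24, 0.042 for Rpl37, 0.081 for Rpl35 and 0.19 for Rpl22l1, and without LFD late tumors 1 and 5 and HFD late tumor 4 they were 0.015 for Rpl26 and 0.033 for Rpl39. Leaving out single tumors turned the sign of Rpl11 (−0.0047 to 0.15), Rpl22l1 (−0.12 to 0.069), Rpl35 (−0.098 to 0.039), Rpl39 (−0.11 to 0.054) and Rps24 (−0.21 to 0.030), none of which passed the test.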

Other observations

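The probe of Rpl17 at base 715 of its transcript was at 4.58 in HFD-LFD late tumor 3 and between −0.77 and 0.59 in the other tumors. The probe at base 225 ran from −0.04 to 0.69 where it was measured, and it was missing in that tumor.

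Other lists stood as follows in early against late tumors, where 8.13% of all genes were called higher and 14.4% lower. Of 8 basal genes 3 were lower, of 8 milk protein genes 1 was lower, of 9 macrophage genes 1 was lower, of 4 B cell genes none passed, of 8 endothelial genes 2 were lower, of 8 fibroblast genes 1 was lower and of 7 adipocyte genes 2 were lower.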
